A study of Mus musculus with 2 samples.

Results

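Messenger RNA of the interferon-inducible and the constitutive catalytic subunits of the proteasome was compared between 2 arrays of RAW 264.7 cells, a mouse macrophage-like tumour line. The inducible side was Psmb8, Psmb9, Psmb10, Psme1 and Psme2, and the constitutive side was Psmb5, Psmb6 and Psmb7. A gene was included if a probe set carried its symbol and no other symbol in the platform annotation. This held for 7 of the 8 listed genes, out of 12393 genes on the array with such a probe set, and each of the 7 had 1 probe set. The only probe set naming Psme2 also names its near copy Psme2b, so Psme2 has no value of its own here.

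The proteasome is a barrel that cuts ubiquitin-tagged proteins into peptides, with catalytic sites carried by 3 of its beta subunits. Interferon gamma induces a second version of each of these subunits, and newly built barrels that take them up are called immunoproteasomes. Psmb8 (also called Lmp7) takes the place of Psmb5, which carries the chymotrypsin-like site, Psmb9 (Lmp2) that of Psmb6, which carries the caspase-like site, and Psmb10 (Mecl1) that of Psmb7, which carries the trypsin-like site. Psme1 and Psme2 encode the subunits of PA28, an interferon-inducible activator that caps the barrel. In macrophages the peptides made this way feed the MHC class I presentation route.

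1 group of cells received IFN-gamma at 1000 U/ml for 4 h, and the other received the same IFN-gamma together with adenosine at 300 uM for 4 h. All cells were thus interferon-treated, and no untreated array was analysed here, so induction by interferon itself was not measured. RNA of 2 experiments was pooled within each treatment before hybridization to Affymetrix mouse arrays, which gives 1 array per treatment. The study's design sets adenosine against its absence in IFN-gamma-activated macrophages. No test of a difference was possible with 1 array per group, and precision is limited by the number of arrays. The one available error is how far probe sets for 1 gene differ, and it does not hold the spread of cultures or of arrays. Over 2375 genes with at least 2 usable probe sets, the SD in the brightest 25% was 0.41 for a single log2 ratio and 0.57 for the difference of a pair of log2 ratios.

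The median deposited signal was 45.9 with IFN-gamma and 15.2 with adenosine. Signals of the adenosine array were therefore multiplied by 2.82, which removes a median log2 ratio of -1.50, and all signals below are on this centred scale unless called deposited. A centred ratio compares a gene with the middle of the array and does not show whether its absolute amount per cell changed. Fewer expressing cells and less RNA per cell cannot be told apart in such bulk RNA. Spiked-in control transcripts, 18 probe sets, had a median deposited log2 ratio of -0.53. A floor of 44.0 was set at the 50th percentile of signals, and the 6818 genes above it on at least 1 array are called measured. All 10 macrophage markers examined were measured, with summed signals of 33351 and 44426 on the IFN-gamma and adenosine arrays. None of 26 markers of other cell types was measured (highest signal 30). The ratio of 3′ to 5′ signal of Actb, a gauge of RNA integrity, was 1.19 with IFN-gamma and 1.12 with adenosine added.

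With adenosine, 2 of the 3 inducible catalytic subunits were lower relative to the array median and the third was not. By comparison, 3816 of 6818 measured genes and 842 of the 1705 in the brightest 25% had a log2 ratio below 0. Psmb9 and Psmb10 were 1.90-fold and 1.62-fold lower, whereas Psmb8 was 1.33-fold higher, as were Psmb5 (1.26-fold) and Psmb7 (1.44-fold) on the constitutive side; these 3 ratios turn below 1 in deposited and in spike-scaled signals. Psme1, Psmb6 and Psmb5 differed from the array median by less than the SD between probe sets, and Psmb8 by about that SD. None of the 7 genes reached a 2-fold difference in either direction, whereas 10.1% of measured genes lay 2-fold or more below the IFN-gamma array and 4.52% lay 2-fold or more above it. All 7 were among the brightest 25% of measured genes, where these shares were 6.10% and 2.40%.

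Psmb9 had the lowest ratio of the 7. Its signal was 2004 with IFN-gamma and 1054 with adenosine added, a log2 ratio of -0.93, which is 2.29 times the probe set SD of 0.41. Among all measured genes 11.6% had a lower ratio, and among the brightest 25% 6.63%. Psmb10 followed, at 1576 with IFN-gamma and 973 with adenosine, a log2 ratio of -0.69. A lower ratio was found in 17.8% of measured genes and in 10.6% of the brightest 25%. These were the 2 members at least 1.5-fold lower, a limit passed by 21.8% of measured genes and 13.2% of the brightest 25%. No member was at least 1.5-fold higher, against 12.9% and 11.7%.

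Psmb8 went the other way. It read 1643 with IFN-gamma and 2179 with adenosine added, a log2 ratio of 0.41, about the size of the probe set SD. This ratio was above that of 80.4% of measured genes and 80.7% of the brightest 25%. In deposited signals Psmb8 was lower with adenosine, 773 against 1643, as was every other member. Psmb8 therefore differs from Psmb9 and Psmb10 in how far its deposited signal lay below the IFN-gamma array, by log2 ratios of -1.09, -2.42 and -2.19 in that order.

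**Figure D1:**
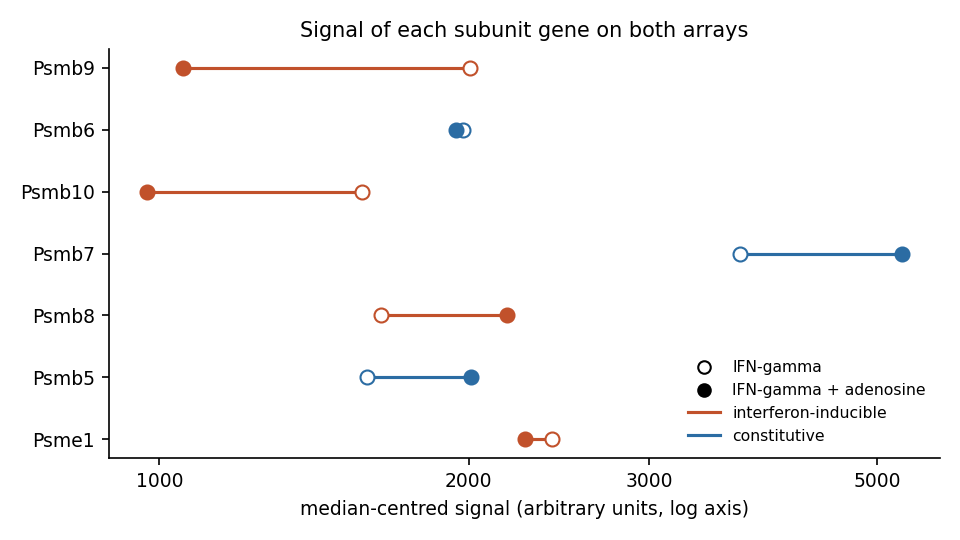
Signal of the 7 subunit genes after median centring (log axis, arbitrary units), with open circles for IFN-gamma and filled circles for IFN-gamma with adenosine, 1 array each. Psmb9 and Psmb10 are the genes whose filled circle lies far to the left of the open one. Distances along a line can be compared between genes, but positions cannot, because each probe set has its own brightness.

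Psme1, the PA28 alpha gene, had signals of 2410 and 2271 on the IFN-gamma and adenosine arrays, a log2 ratio of -0.09. The probe set shared by Psme2 and Psme2b read 2461 and 2270, a log2 ratio of -0.12, and cannot be assigned to either gene. Both values lie close to 0, well inside the scatter between probe sets. The activator thus differed less between the arrays than Psmb9 and Psmb10 did, by these single probe sets.

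Among the constitutive subunits, Psmb6 read 1975 with IFN-gamma and 1947 with adenosine added, a log2 ratio of -0.02, which became 0.05 with trimmed mean scaling. Psmb5 read 1594 and 2010, a log2 ratio of 0.33, which is inside the probe set SD. Psmb7 had the highest ratio of all members, 0.53, from signals of 3671 and 5283. It was also the brightest probe set of the 7, and ratios on these arrays drift upward with brightness at the top of the range. A loess correction for that drift brought Psmb7 to 0.23, while Psmb8 stayed at 0.37 and Psmb9 at -0.92.

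**Figure D2:**
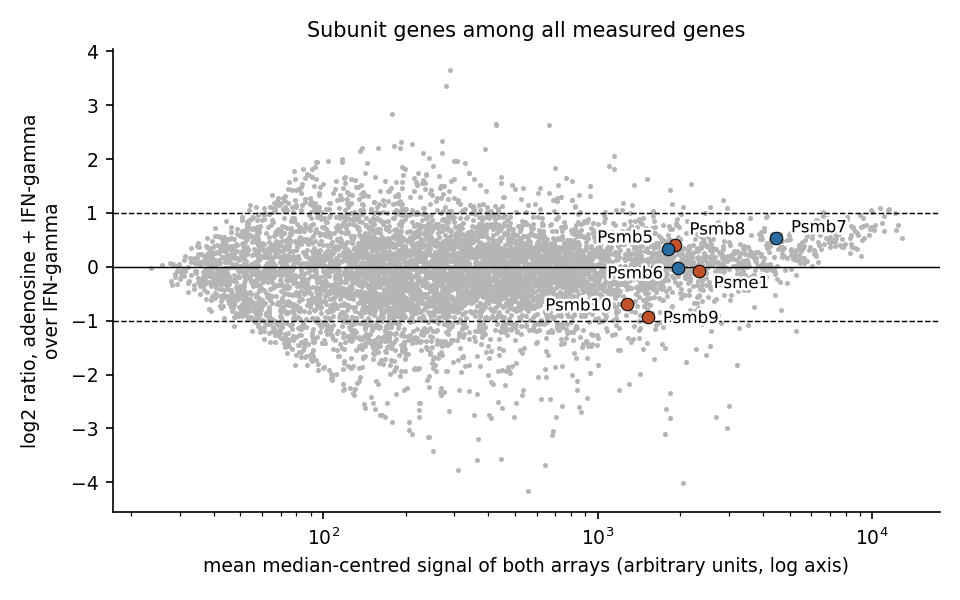
Log2 ratio of adenosine with IFN-gamma over IFN-gamma against the mean centred signal (log axis) for 6818 measured genes (grey) and the 7 subunit genes (red, inducible; blue, constitutive). Dashed lines mark 2-fold. Psmb9 and Psmb10 lie on the lower side of genes of their brightness but inside the 2-fold line, and Psmb7 lies where the grey points bend upward.

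Each inducible subunit was next set against the subunit it replaces. The difference of their log2 ratios does not depend on any scaling that multiplies an array by 1 factor, so it is the same for deposited, centred and spike-scaled signals. At the caspase-like site Psmb9 minus Psmb6 was -0.91, which means that the inducible transcript was 1.87-fold lower with adenosine relative to its partner. At the trypsin-like site Psmb10 minus Psmb7 was -1.22, or 2.33-fold lower. These differences were 1.58 and 2.13 times the SD of 0.57 between probe sets. At the chymotrypsin-like site Psmb8 minus Psmb5 was 0.07, or 0.13 of that SD. With the loess correction the 3 differences were -0.85, -0.90 and 0.06 in the same order, so the 2 lower pairs then differed by nearly the same amount.

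**Figure D3:**
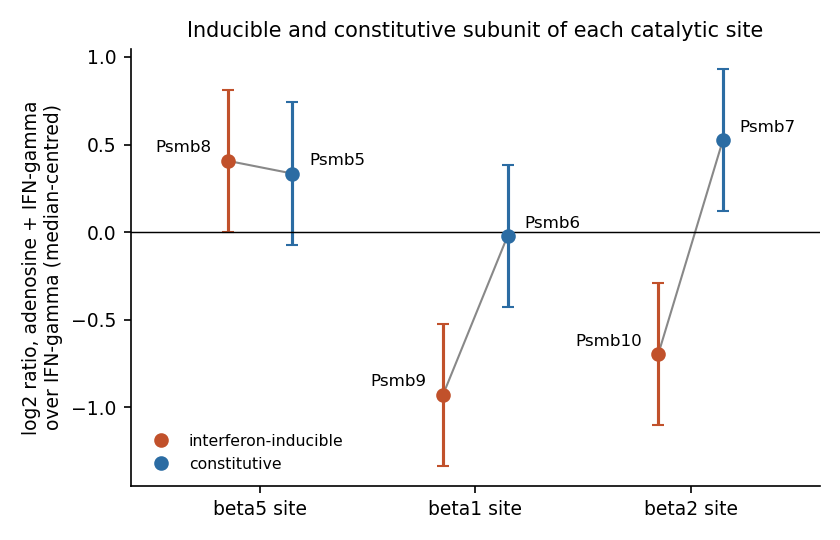
Centred log2 ratio of the inducible (red) and constitutive (blue) subunit of each catalytic site, 1 probe set and 1 array per treatment each. Bars show the SD of 0.41 between probe sets of a gene and not a spread between cultures. The bars of Psmb9 and Psmb6 and of Psmb10 and Psmb7 do not overlap, and Psmb8 and Psmb5 lie beside each other.

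As groups, the 4 inducible genes with a value had a median log2 ratio of -0.39 and the 3 constitutive genes one of 0.33, against -0.08 for all measured genes and 0.01 for the brightest 25%. The difference of the medians was -0.73. The groups overlapped, since Psmb8 lay above both Psmb5 and Psmb6. The probe sets of Psmb8 and Psmb5 carry a single gene symbol but are of a type that can detect several transcripts. Leaving out such probe sets drops both genes, and the medians were then -0.69 and 0.25 and their difference -0.95. The inducible genes spanned 1.33 on the log2 scale and the constitutive genes 0.55. A single median therefore describes the inducible group poorly.

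The Psmb9 and Psmb8 genes are neighbours in the MHC region, in the order Psmb9, Tap1, Psmb8, Tap2 in the RefSeq annotation of GRCm38.p6. Tap1 and Tap2 encode the transporter that carries peptides into the endoplasmic reticulum. Tap1 read 1097 with IFN-gamma and 301 with adenosine added, a log2 ratio of -1.87. Tap2 read 526 and 245, a log2 ratio of -1.10. Along this stretch the ratios were thus -0.93, -1.87, 0.41 and -1.10, with Psmb8 the 1 gene of the 4 above the array median.

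Psmb9 and Tap1 start in opposite directions from a common stretch, and their promoter windows in RefSeq (250 bases before the start and 50 after it) share 275 of 300 bases. The 225 bases between both starts, chr17:34187331-34187555 of GRCm38.p6, are shown on the plus strand (the direction of Tap1) because 2 of the lower genes flank them. They are followed by the 250 bases before the start of Psmb8, chr17:34197945-34198194, plus strand, as the gene in the same stretch that was not lower. The last line is a 30-base stretch at the start of Psme1, chr14:55578493-55578522, plus strand. Capitals mark matches to 3 motifs searched on both strands, which are the GC box GGGCGG bound by SP1-type factors, the gamma-activated site TTCNNNGAA and the element GAAANNGAAA of interferon regulatory factors.

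Psmb9-Tap1: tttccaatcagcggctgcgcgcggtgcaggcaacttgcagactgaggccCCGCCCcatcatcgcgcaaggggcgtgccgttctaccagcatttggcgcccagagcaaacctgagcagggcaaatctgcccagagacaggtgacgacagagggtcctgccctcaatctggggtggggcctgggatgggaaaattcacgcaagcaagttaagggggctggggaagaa
Psmb8: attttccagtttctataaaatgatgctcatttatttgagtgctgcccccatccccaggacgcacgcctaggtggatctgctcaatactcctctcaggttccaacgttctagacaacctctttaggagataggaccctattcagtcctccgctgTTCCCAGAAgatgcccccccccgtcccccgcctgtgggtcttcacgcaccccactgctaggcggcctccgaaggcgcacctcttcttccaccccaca
Psme1: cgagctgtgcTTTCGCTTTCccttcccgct

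The window of Psmb8 held 1 match to the gamma-activated site, TTCCCAGAA, starting 97 bases before the start. Neither the Tap1 window nor that of any other listed member held one. That covers Psmb9 and Psmb10, which were lower, and Psmb5, Psmb6 and Psme1 alike. With a match in 1 window only, whether it goes with the ratios was not tested. Of all 32851 windows 8.30% had at least 1 such match. The Psme1 window held 1 match to the interferon regulatory factor element on the minus strand, just after the start, which 3.44% of windows have. The Psmb9 and Tap1 windows shared 1 GC box and 1 CCAAT sequence, found in 35.7% and 37.4% of windows. The windows of Psmb6, Psme1 and Psme2 also held a GC box. The cAMP response element TGACGTCA, present in 1.79% of windows, was in the window of no member. Windows were listed for Psmb5, Psmb6, Psmb8, Psmb9, Psmb10, Psme1 and Psme2, and Psmb7 had no entry. These matches describe letters in a short window and show nothing about binding.

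The rest of the proteasome gave a measure of how far subunits that interferon does not swap differed between the arrays. Of 30 listed subunits of the barrel without a catalytic site and of the 19S cap, 29 were measured, with a median log2 ratio of 0.06. At least 2-fold lower was 1 of them and none was 2-fold higher, and 12 were below 0. Of these 29 ratios, 28 lay above those of Psmb9 and Psmb10, and 28 lay below those of Psmb8, Psmb5 and Psmb7. These 5 members therefore stood toward the outside of this set, as a description of these 2 arrays. Psmb5 did so narrowly, at 0.33 against 0.32 for Psmd2, and Psmb7 was at 0.23 with the loess correction. Psme1 and Psmb6 lay inside the set, with 8 and 10 of the 29 below them.

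Within it, the alpha ring, the outer gate of the barrel, had a median log2 ratio of 0.02 over 7 genes, from -0.46 for Psma5 to 0.20, although a second Psma5 probe set gave -0.01. Psma1 was at -0.27. The beta subunits Psmb1, Psmb2, Psmb3 and Psmb4, which carry no catalytic site, had a median of -0.04 by their brightest probe sets, with Psmb1 at -0.16 and Psmb2 at -0.10. Second probe sets of Psmb3 and Psmb4 gave -0.44 and -0.56, against 0.09 and 0.02 by the brightest. In the 19S base, the ring of ATPases that unfolds substrates, Psmc4 was the subunit 2-fold lower (log2 ratio -1.55), but its second probe set gave -0.13. Psmc6 was at -0.49 and its second probe set at -0.63. In the 19S lid, which removes ubiquitin, the largest ratios were those of Psmd3 (0.84) and Psmd8 (0.20). By their brightest probe sets the core and cap as a whole thus lay close to the array median. Second probe sets of Sem1, Psmd6 and Psmc2 gave -0.60, -0.33 and -0.25, against 0.09, 0.12 and 0.17 by the brightest. Those of Psma6 and Psmd11 were higher, at 0.18 and 0.04 against 0.02 and -0.01.

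Assembly factors were mixed, with a median of 0.08 over 8 genes. Pomp, the maturation factor needed to complete new barrels, read 2532 and 2778, a log2 ratio of 0.13. Psmg2, a chaperone of alpha ring assembly, read 587 and 261, a log2 ratio of -1.17, and its second probe set gave -1.12. Psmd10, a 19S assembly chaperone, was at -0.59. Of the activators that interferon does not induce, Psme3 (PA28 gamma, a nuclear cap) was higher by both usable probe sets, at 0.61 and 1.12. Psme4 (PA200) was at -0.43, -0.85 and -0.08. The first and last of these lie inside the probe set SD of 0.52 over all genes. Psmf1, an inhibitor of the barrel, was at 0.20 by its brightest probe set and at -1.12 by another, so no direction can be given.

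**Figure D4:**
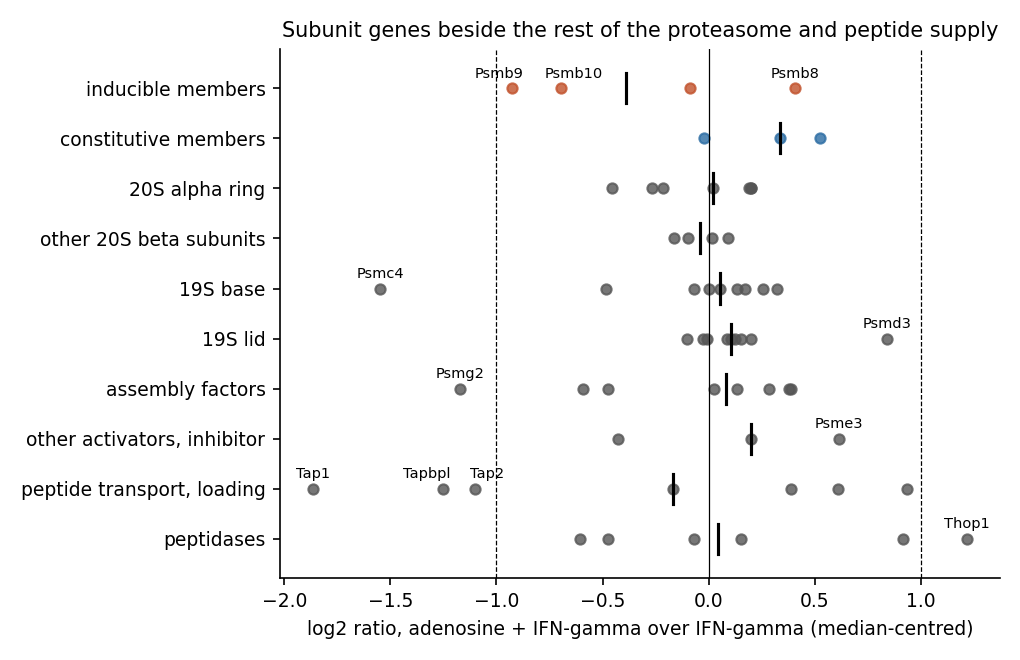
Centred log2 ratios of the subunit genes (red, inducible; blue, constitutive) beside other proteasome genes and genes of peptide supply (grey), 1 point per gene and a black bar for each median. Dashed lines mark 2-fold. The core and 19S rows cluster around 0, with Psmb9 and Psmb10 to the left of nearly all of them and Psmb8 to the right.

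Factors that act on these genes were available in part. Irf1, an interferon-induced activator of Psmb9 and Tap1, read 2904 and 2440, a log2 ratio of -0.25. Irf2 was at -0.65. Irf8 was at -2.99 by its brightest probe set and at -0.66 by another. Nfe2l1, which drives the genes of the constitutive proteasome, was at -0.13, with signals of 265 and 242. Nlrc5, Ddi2 and the thymus subunit gene Psmb11 were not analysed here.

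Genes that handle the peptides after the proteasome went both ways. Of 7 genes of peptide transport and loading, 3 were at least 2-fold lower and none was 2-fold higher, with a median of -0.17. The 3 were Tap1, Tap2 and the tapasin-like gene Tapbpl (-1.25). On the other side, and named after their values had been seen, were the loading factor genes Pdia3 (0.94) and Calr (0.61, with other probe sets at 0.70 and 0.58) and the class I light chain gene B2m (0.39). These turn below 0 in deposited signals, at -0.56, -0.88 and -1.11. Of 6 peptidases, Thop1, which destroys peptides in the cytosol, was 2.33-fold higher (155 against 360), and Npepps was at 0.92 and, by its second probe set, 0.24. Thop1 was the only peptidase 2-fold higher and none was 2-fold lower, beside the same 4.52% and 10.1% of measured genes. The median of the 6 was 0.04.

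Directions relative to 0 depend on how the arrays are brought to a common level. All 7 members were below 0 in deposited signals and with scaling to the spiked-in controls, with Psmb8 at -1.09 and -0.56 and Psmb9 at -2.42 and -1.89. At least 2-fold lower in deposited signals were 6 of the 7 members, beside 78.8% of 7117 measured genes. With spike scaling 3 of the 7 were, beside 50.7% of 6975 measured genes, so these counts say nothing about the members in particular. Psme3 and Thop1 were likewise below 0 in deposited signals, at -0.88 and -0.28. Median, trimmed mean and spike scaling multiply an array by 1 factor, so they cannot change the order of these members in deposited signals. Under quantile and loess scaling, which can change it, Psmb9 was again the lowest and Psmb10 the next lowest. Psmb8 stayed above Psmb5, Psmb6 and Psme1 in both.

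**Figure D5:**
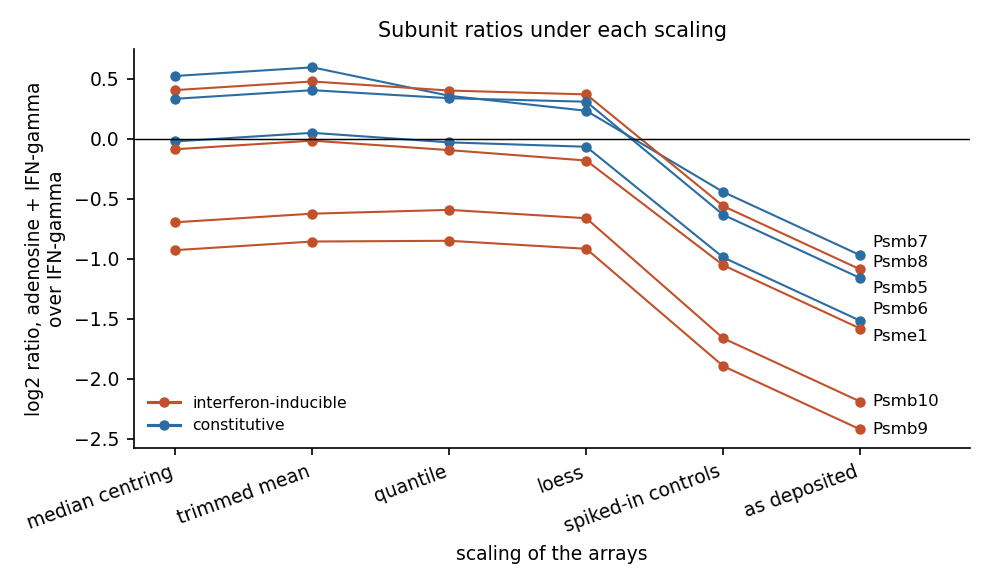
Log2 ratio of the 7 subunit genes (red, inducible; blue, constitutive) under 6 ways of scaling the arrays, with lines joining the values of 1 gene. Scaling to spiked-in controls or none at all moves all genes down together and cannot change their order. Psmb9 and Psmb10 are also the 2 lowest with quantile and loess scaling, which can change it.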

How the data were processed

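The authors deposited 1 linear intensity for each of 22690 probe sets and each array. Per the submitters' processing notes the GCOS software was used; how signals were computed and scaled is not given in the sources used here. The 64 manufacturer's controls were left out of gene results. Of the other 22626 probe sets, 20380 had 1 symbol, 691 several and 1555 none in the platform annotation; symbols were updated through Entrez identifiers with RefSeq tables of GRCm38.p6. The adenosine array was centred on the median log2 ratio of gene probe sets above the deposited 50th percentile on both arrays. Signals below the floor were raised to it before taking log2. Where a gene had several probe sets, the brightest one over both arrays was used. The design had foreseen this centring. No test was made, and 2-fold and 1.5-fold counts are by size. The calculation was tested on simulated data. The members, the 11 pathway lists (63 entries, 57 matched) and the alternatives were chosen with earlier results of these data known. Named genes beyond the members are the 2 largest absolute ratios in each list, genes fixed by name (among them Pomp, Tap2, Irf1 and Nfe2l1) and a few added after their values were seen. Python 3.11.15, numpy 2.4.6, pandas 2.3.3 and statsmodels 0.14.6 were used.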

Additional observations from a re-analysis of the deposited data

How the results depend on the processing

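No paired analysis was possible because there is a single pooled array on each side; for the same reason no replicate was left out. In deposited values the log2 ratios were -1.09 for Psmb8, -2.42 for Psmb9, -2.19 for Psmb10, -1.58 for Psme1, -1.16 for Psmb5, -1.52 for Psmb6 and -0.97 for Psmb7, with medians of -1.89 (inducible) and -1.16 (constitutive), and 6 members and 5605 genes lay 2-fold or more lower (78.8% of 7117 measured) and 10 genes higher (99.8% of these calls lower, against 69.2% of 691 lower and 308 higher after centring). With spiked-in scaling they were -0.56, -1.89, -1.66, -1.05, -0.63, -0.99 and -0.44 in the same order, with medians of -1.36 and -0.63, and 3 members and 3538 genes (50.7% of 6975) were lower and 33 genes higher (99.1% of calls lower). The other scalings moved no member by more than the probe set SD, though Psmb6 turned from -0.02 to 0.05 with the trimmed mean. The pseudocount of 16 is small beside the members' signals and hardly moved them. Floors and the choice of probe sets could not move a member, because each has 1 probe set far above the floor. Quantile scaling gave 59.0% of called genes lower. Floors at the 33rd and 67th percentiles gave 599 and 133 genes higher, the latter with 328 lower. A 1.5-fold threshold gave 2 members lower, with 1489 genes lower and 879 higher, and a 3-fold threshold gave 202 and 67. Over all alternatives the pair difference of Psmb8 and Psmb5 ranged from 0.06 to 0.07. That of Psmb9 and Psmb6 ranged from -0.91 to -0.82, and that of Psmb10 and Psmb7 from -1.22 to -0.90. Only quantile scaling, loess scaling and the pseudocount could change these differences. Leaving out probe sets of the type that can detect several transcripts removed Psmb8 and Psmb5, although each carries a single gene symbol. The difference of Psmb8 and Psmb5 therefore has no value there. The inducible median moved to -0.69, the constitutive one to 0.25 and the difference of the medians to -0.95. Each member rests on 1 probe set, and no spread between cultures is known.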
